A study of Homo sapiens with 19 samples.

Results

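The genes described here are 9 reported targets of MLL fusion proteins that lie outside the HOXA cluster: MEIS1, PBX3, MEF2C, CDK6, JMJD1C, IGF2BP3, ZEB2, EYA1 and SATB1. They were taken from a list of gene names, with earlier results of these data known, and are 9 of 20033 protein-coding genes of GENCODE release 44 (hg38). CUT&RUN, in which an antibody-tethered nuclease releases the DNA under a chromatin mark, was performed on MOLM-13, an established human acute myeloid leukaemia line that carries a KMT2A::MLLT3 (MLL) fusion. The 12 peak lists used here cover 3 marks (H3K27ac, H3K4me2, H3K4me3), with 2 Corin libraries and 2 libraries of the solvent DMSO per mark. Cells were exposed for 24 h, and the labelled dose is 0.1 µM. The labels give that dose for the DMSO libraries too, and its meaning there is unclear. Every group is the same cell line, so each comparison is within 1 leukaemia. The labels do not say whether the 2 libraries of a group came from separate cultures, so each SD and p-value measures only the spread between these libraries. The other 7 libraries (4 with all-trans retinoic acid and Corin, 1 against LSD1, 2 with IgG) were not analysed here, and no IgG background was subtracted here. Whether the submitters called peaks against the IgG libraries is not known here.

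An MLL fusion joins the DNA-binding end of KMT2A, held on chromatin through menin, to a partner that recruits elongation factors and the methyltransferase DOT1L, which keeps a set of stem-cell genes active in leukaemia. H3K27ac marks active promoters and enhancers, H3K4me2 marks both and is a substrate of the demethylase LSD1, and H3K4me3 lies mostly at promoters. LSD1 and histone deacetylases sit together in the CoREST complex, and Corin inhibits both enzymes. The comparison of Corin with DMSO asks how the length of chromatin under each mark at these genes differs when CoREST is inhibited.

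The lists give where a peak lies and a score, not reads, so every value below is a length in bp covered by peaks and not an amount of the mark. Depth is known only as a labelled minimum of 5000000 reads per library. The 12 lists held 11104 to 41152 peaks. Total covered length in Corin was 1.96 times that in DMSO (log2 0.97) for H3K27ac. The ratio was 1.28 (log2 0.36) for H3K4me2 and 1.06 (log2 0.08) for H3K4me3. A ratio at a gene is therefore read beside the ratio of its whole list. H3K4me3 lay within 1 kb of the transcription start site (TSS) in all 4 libraries at 6 of 7 myeloid marker genes and in 0 of 4 at MPO, and in none at 9 markers of B, T, erythroid, liver and epithelial cells. Of those 6, PTPRC was the least covered, with 4 to 560 bp.

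Sequences are shown for the places where the marks set members apart: promoter stretches of 250 bases before the TSS for MEIS1, IGF2BP3 and CDK6, then the centres of peak regions that only 1 treatment had in both of its libraries, where the peaks of those 2 libraries need not cover the same bases. Capitals mark matches, on either strand, to 7 short motifs. These are the PU.1 letters GAGGAAG, the C/EBP letters TTGCGCA, the MEIS letters TGACAG, the PBX-HOX letters TGATTGA, the RUNX letters TGTGGT, the GFI1 core AAATCA and the nuclear receptor letters AGGTCA. A match on the other strand shows the reverse complement. All are from hg38, written 5′ to 3′ on the strand of the gene; the promoter stretches are RefSeq entries on GRCh38, of which 8 of 9 members had one.
MEIS1 promoter, chr2:66434875-66435124, plus strand: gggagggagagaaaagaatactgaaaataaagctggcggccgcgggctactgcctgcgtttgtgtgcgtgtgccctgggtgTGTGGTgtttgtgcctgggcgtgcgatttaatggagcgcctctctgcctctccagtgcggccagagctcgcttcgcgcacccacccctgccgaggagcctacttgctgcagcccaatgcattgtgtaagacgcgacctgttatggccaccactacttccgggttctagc
IGF2BP3 promoter, chr7:23470492-23470741, minus strand: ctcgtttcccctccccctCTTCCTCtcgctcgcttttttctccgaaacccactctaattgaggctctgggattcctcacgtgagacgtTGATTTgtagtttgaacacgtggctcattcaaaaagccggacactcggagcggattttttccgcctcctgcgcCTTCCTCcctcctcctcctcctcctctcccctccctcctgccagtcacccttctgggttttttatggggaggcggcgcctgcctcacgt
CDK6 promoter, chr7:92836574-92836823, minus strand: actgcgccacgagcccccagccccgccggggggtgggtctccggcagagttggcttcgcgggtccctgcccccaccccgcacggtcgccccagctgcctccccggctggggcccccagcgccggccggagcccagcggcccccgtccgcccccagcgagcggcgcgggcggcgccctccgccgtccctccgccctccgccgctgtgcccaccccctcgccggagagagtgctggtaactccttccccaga
IGF2BP3 upstream region, H3K27ac in Corin only, chr7:23471320-23471619, minus strand: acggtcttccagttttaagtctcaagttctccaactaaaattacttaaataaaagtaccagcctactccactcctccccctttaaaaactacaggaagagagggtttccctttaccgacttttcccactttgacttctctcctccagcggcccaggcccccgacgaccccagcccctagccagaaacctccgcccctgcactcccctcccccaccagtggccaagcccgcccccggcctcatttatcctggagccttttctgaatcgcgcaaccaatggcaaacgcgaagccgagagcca
CDK6 intron, centre of a region with H3K27ac and H3K4me2 in Corin only, chr7:92793999-92794298, minus strand: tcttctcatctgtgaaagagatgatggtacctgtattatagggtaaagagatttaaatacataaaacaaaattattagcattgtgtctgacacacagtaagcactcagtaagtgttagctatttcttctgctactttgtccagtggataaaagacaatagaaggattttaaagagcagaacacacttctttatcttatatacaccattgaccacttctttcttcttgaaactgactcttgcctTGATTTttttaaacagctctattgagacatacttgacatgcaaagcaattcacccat
JMJD1C intron, centre of a region with H3K4me2 in Corin only, chr10:63450870-63451169, minus strand: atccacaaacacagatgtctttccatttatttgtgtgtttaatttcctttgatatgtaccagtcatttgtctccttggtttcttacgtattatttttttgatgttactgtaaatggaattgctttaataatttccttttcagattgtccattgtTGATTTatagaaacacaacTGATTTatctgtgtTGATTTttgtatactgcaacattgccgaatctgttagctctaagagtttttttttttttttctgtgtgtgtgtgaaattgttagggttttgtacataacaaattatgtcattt
ZEB2 intron, centre of a region with H3K27ac in Corin only, chr2:144504260-144504559, minus strand: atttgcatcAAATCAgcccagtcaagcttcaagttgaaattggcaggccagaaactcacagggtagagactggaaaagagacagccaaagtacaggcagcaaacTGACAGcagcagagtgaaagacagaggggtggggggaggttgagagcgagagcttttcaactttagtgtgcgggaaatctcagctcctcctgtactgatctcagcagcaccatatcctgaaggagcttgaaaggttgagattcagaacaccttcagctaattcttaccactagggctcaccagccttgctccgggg
MEIS1 intron, centre of a region with H3K27ac in DMSO only, chr2:66494504-66494803, plus strand: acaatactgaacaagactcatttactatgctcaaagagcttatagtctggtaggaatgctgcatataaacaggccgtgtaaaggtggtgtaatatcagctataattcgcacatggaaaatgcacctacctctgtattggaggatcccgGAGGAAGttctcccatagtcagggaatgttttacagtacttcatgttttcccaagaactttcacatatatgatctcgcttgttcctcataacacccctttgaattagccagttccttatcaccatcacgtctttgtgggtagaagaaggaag
MEF2C intron, H3K4me2 in DMSO only, chr5:88882286-88882510, minus strand: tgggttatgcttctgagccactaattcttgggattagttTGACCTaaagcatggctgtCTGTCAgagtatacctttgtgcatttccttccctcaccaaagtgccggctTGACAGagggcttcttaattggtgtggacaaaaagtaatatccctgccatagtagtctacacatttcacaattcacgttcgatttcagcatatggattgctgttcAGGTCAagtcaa

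The promoter stretches differed in base composition: CDK6 had 80.0% G and C with 30 CpG pairs, MEIS1 59.6% with 16, and IGF2BP3 56.8% with 15. Over 35116 RefSeq promoter entries the 250 bases before the start held the PU.1 letters in 11.2%, the RUNX letters in 10.98% and the GFI1 core in 11.6%. The IGF2BP3 stretch held the PU.1 letters at 2 places and the GFI1 core at 1, the MEIS1 stretch held the RUNX letters once, and the CDK6 stretch held none of the 7 motifs. In the central 300 bases of union regions at least that wide, the GFI1 core stood in 14.9% of 30914 for H3K27ac and 16.96% of 37413 for H3K4me2. The JMJD1C intron held it 3 times, and the CDK6 and ZEB2 introns once each. Of all gained centres examined at the members, the core stood in 4 of 10 for H3K27ac and 4 of 6 for H3K4me2, and 1 CDK6 place counts under both marks. The MEIS letters stood in 4 of the 10 and 0 of the 6. These centres were not drawn evenly: they are the widest gained regions of each mark and the widest of each gene, and the letters are rich in A and T as is the JMJD1C stretch, with 29.3% G and C. The MEIS letters, in 18.7% of those H3K27ac windows, stood once in the ZEB2 intron. The PU.1 letters, in 15.4% of them, stood once in the MEIS1 intron. The MEF2C stretch of 225 bases held the MEIS letters and the nuclear receptor letters at 2 places each, against shares of 13.9% and 13.9% with at least 1 match among 40219 H3K4me2 windows of that length. A match describes letters and shows no binding. Over the printed CDK6 bases H3K27ac covered 300 and 0 bp in Corin replicates 1 and 2, and H3K4me2 300 bp in both. The JMJD1C bases had 300 and 65 bp of H3K4me2 and the ZEB2 bases 300 and 151 bp of H3K27ac in those replicates. For the mark that chose each of these 3 stretches, the matches in them lay under a peak of Corin replicate 1 alone. Over the 300 bases of the RefSeq entry, which end after the TSS, CDK6 had 300 bp of H3K4me3 in all 4 libraries, 0 bp of H3K4me2 and 101 to 300 bp of H3K27ac. MEIS1 also had 300 bp of H3K4me3 in all 4, with 126 to 300 bp of H3K4me2 and 0 bp of H3K27ac. IGF2BP3 had 300 bp of H3K4me2 in all 4, 14 to 218 bp of H3K4me3 and 0 bp of H3K27ac.

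In DMSO the 8 members other than EYA1 carried all 3 marks around the TSS, most of them over more sequence than nearly all other genes. Within 10 kb either side of the TSS of the canonical transcript, the DMSO mean of these 8 exceeded that of 87.6% to 99.8% of the 20033 genes for H3K27ac and 87.8% to 99.8% for H3K4me3. The low ends were IGF2BP3 for H3K27ac and JMJD1C for H3K4me3. For H3K4me2 all 9 were covered, from EYA1, above 35.3% of genes, to MEF2C, above 99.99%. In order of DMSO mean, H3K27ac ran CDK6, ZEB2, SATB1, MEF2C, JMJD1C, MEIS1, PBX3, IGF2BP3 and EYA1. The libraries of each neighbour in that order overlapped down to PBX3, and IGF2BP3 and EYA1 each lay apart from the gene above. H3K4me3 ran MEIS1, CDK6, IGF2BP3, MEF2C, PBX3, ZEB2, SATB1, JMJD1C and EYA1, where the overlapping neighbours were IGF2BP3 with MEF2C and PBX3 with ZEB2. H3K4me2 ran MEF2C, SATB1, MEIS1, IGF2BP3, CDK6, ZEB2, PBX3, JMJD1C and EYA1, with overlap between SATB1 and MEIS1 and between IGF2BP3 and CDK6.

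**Figure D1:**
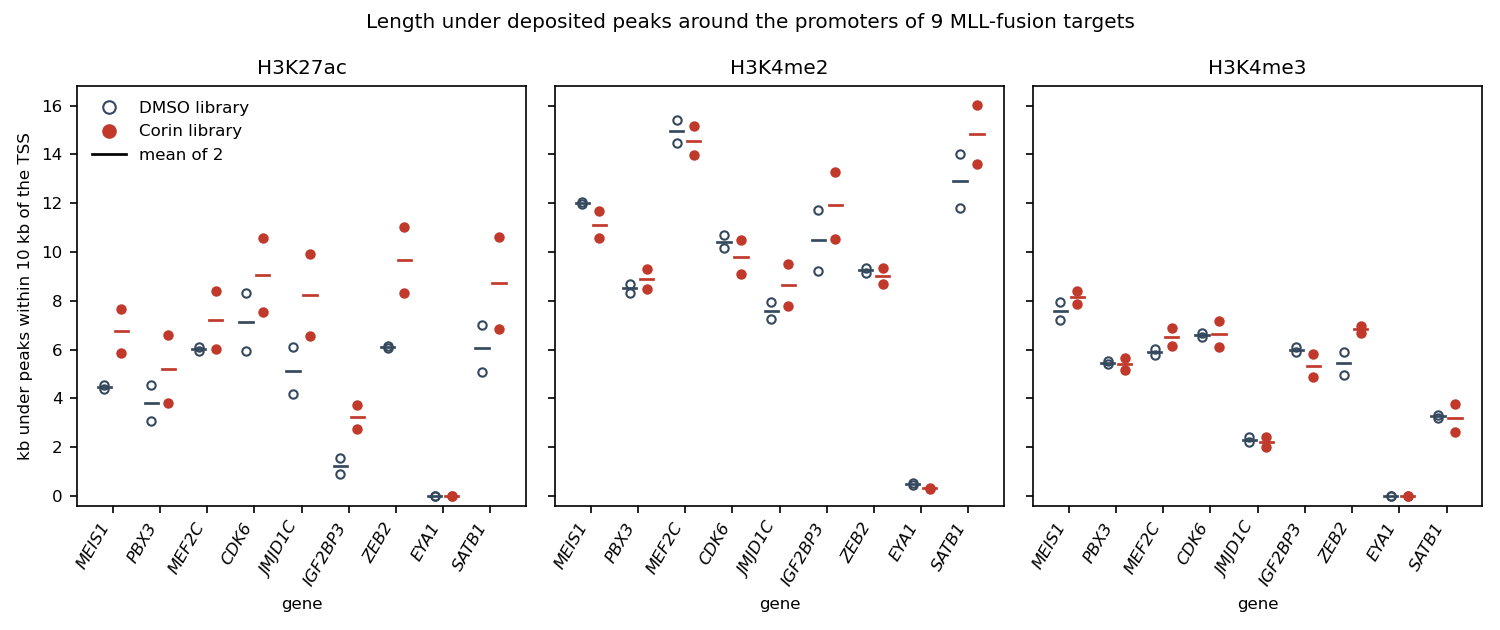
Length under peaks (kb, y axis) within 10 kb of the TSS of each gene (x axis), 1 panel per mark. Points are libraries (open DMSO, filled Corin) and bars are means of 2; for H3K27ac the Corin points lie above both DMSO points at MEIS1, JMJD1C, IGF2BP3 and ZEB2, of which MEIS1 and ZEB2 lie lower once scaled to the total covered length.

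After Corin, H3K27ac covered more sequence around MEIS1, JMJD1C, IGF2BP3 and ZEB2 in both libraries than in either DMSO library, though MEIS1 and ZEB2 lay lower once scaled to the length of the whole list. These are 4 of the 8 members with any H3K27ac there, against 54.6% of the 10657 genes with any, and 0 of 8 lower against 0.591%. EYA1, the other member, had 0 bp of H3K27ac and of H3K4me3. For H3K4me2 no member lay higher (39.6% of 14255 genes did) and 2 lay lower, MEIS1 and EYA1 (3.91%). For H3K4me3, MEF2C and ZEB2 lay higher (25.8% of 11402 genes) and IGF2BP3 lower (8.38%). The median difference over the 9 members, Corin minus DMSO, was 2012 bp for H3K27ac with EYA1 counted at 0 bp, against 445 bp over the covered genes. It was -160 bp against 230 bp for H3K4me2 and 0 bp against 63.5 bp for H3K4me3, each the value of EYA1 itself. The counts rest on single libraries: H3K27ac gave 8 higher without Corin replicate 2 (81% of covered genes) and 7 without DMSO replicate 1 (63.2%). H3K4me2 gave 5 higher without Corin replicate 2 (66.3%), 4 higher without DMSO replicate 1 (47.1%), 5 lower without Corin replicate 1 (20.1%) and 4 lower without DMSO replicate 2 (8.22%). H3K4me3 gave 6 higher without Corin replicate 2 (48.6%), 5 lower without Corin replicate 1 (25.4%) and 2 lower without DMSO replicate 2 (18.5%). With fewer libraries, groups fail to overlap more easily.

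Most members had a smaller ratio of Corin to DMSO than the whole list, as did most genes. That ratio around the TSS was 1.20 (MEF2C) to 1.60 (JMJD1C) for H3K27ac at 7 of the 8 covered members, under the list ratio of 1.96, and 2.64 at IGF2BP3. Among 8900 genes with H3K27ac in both treatments, 62.1% lay under it, with a median of 1.68. For H3K4me2 all 9 members, from 0.66 (EYA1) to 1.15 (SATB1), lay under the list ratio of 1.28, as did 75.9% of 13746 genes. JMJD1C, IGF2BP3 and SATB1 exceeded the median gene, at 1.11. For H3K4me3, 3 of 8 lay above the list ratio of 1.06 (MEIS1 at 1.08, MEF2C at 1.11 and ZEB2 at 1.26) and 5 under it, beside 56.1% of 11032 genes. When each library was divided by its total covered length, 0 members lay higher for H3K27ac and 4 lower (MEIS1, MEF2C, CDK6 and ZEB2), beside 16.4% and 25% of genes, so MEIS1 and ZEB2 turned round as calls. The sign of the H3K27ac mean difference turned at 7 members, all those covered except IGF2BP3. These are the 7 with a ratio under that of the list, so the turn largely restates that ratio. On the scaled lengths 6 members lay lower for H3K4me2, beside 46.1% of genes, and 0 higher, beside 9.66%. For H3K4me3 ZEB2 stayed higher (14.1% of genes) and IGF2BP3 lower (19.9%).

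**Figure D2:**
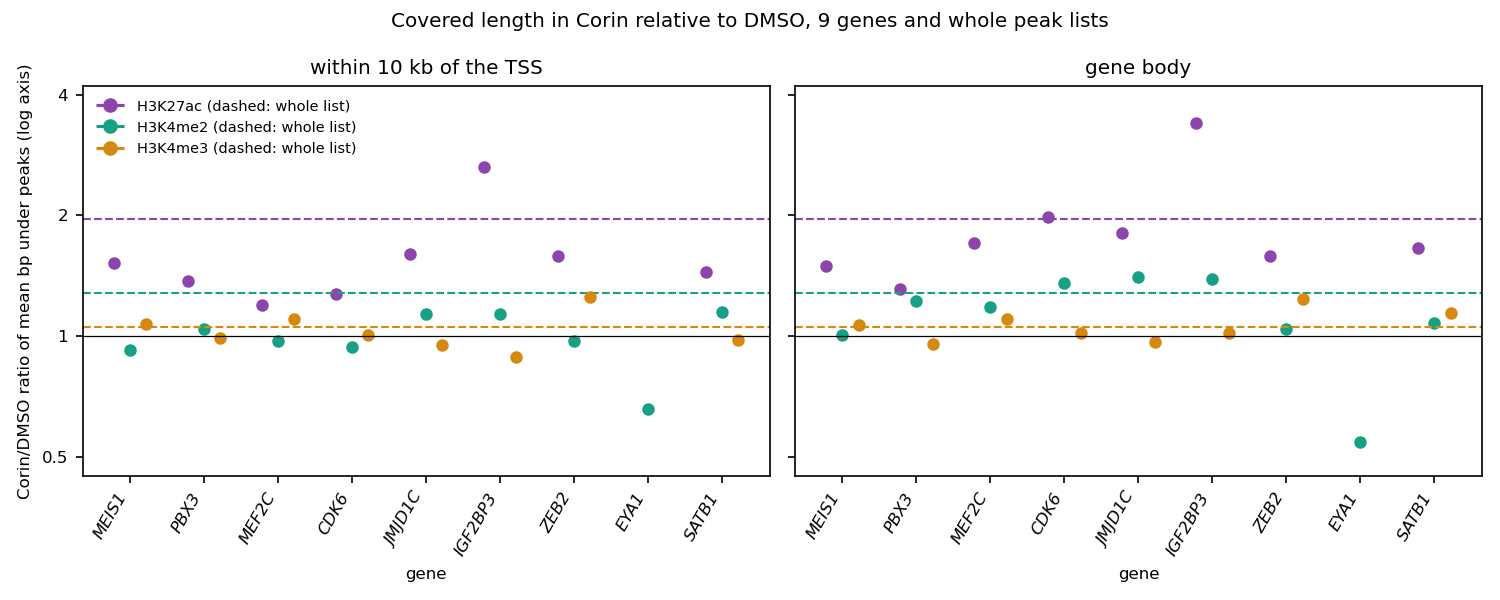
Ratio of the mean length under peaks, Corin over DMSO, on a log axis for each gene (x axis), around the TSS (left) and over the gene body (right), with 1 colour per mark. Dashed lines are the ratios of the whole lists; around the TSS only IGF2BP3 lies above its H3K27ac line.

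limma, fitted to the window lengths of all covered genes with Benjamini-Hochberg adjustment at 0.05, called 0 members for any mark. Adjusted p-values of the members were 0.136 to 0.522 for H3K27ac, 0.539 to 0.906 for H3K4me2 and 0.579 to 0.992 for H3K4me3. At an unadjusted p under 0.05 there were 3 members for H3K27ac (IGF2BP3, ZEB2 and MEIS1), 0 for H3K4me2 and 1 for H3K4me3 (ZEB2). Over all genes limma called 0, 20 (0.14%) and 0, with 2448, 2008 and 776 at an unadjusted p under 0.05. The latter counts are 22.97%, 14.09% and 6.81% of the genes tested. On simulated H3K27ac tables of 10657 genes the same fit recovered 0% of genes shifted by 3000 bp. It can thus miss a shift of that size. On H3K4me2 tables it recovered 9% at 1000 bp and 100% at 3000 bp, and for H3K4me3 61% and 100% were recovered. How closely these tables follow the spread of the real libraries was not tested. For 1 gene alone, an exact permutation test of 2 libraries against 2 cannot give p below 0.333.

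MEIS1, a homeodomain protein that pairs with HOXA9 on DNA, spans chr2:66433452-66573869 on the plus strand, and has its canonical TSS at 66435125. H3K27ac within 10 kb covered 7669 and 5869 bp in the Corin libraries and 4375 and 4539 bp in the DMSO libraries. The Corin libraries lay above both DMSO libraries, by 2312 bp on average (6769 ± 1273 against 4457 ± 116, SD, n = 2 each), with a limma adjusted p of 0.211, and below them once scaled to covered length. H3K4me2 covered 11667 and 10557 bp in Corin and 12030 and 11978 bp in DMSO, so here the Corin libraries lay lower, with a difference of -892 bp and a limma adjusted p of 0.623. H3K4me3 covered 8392 and 7874 against 7933 and 7193 bp, and the groups overlapped. The marks were placed differently along the promoter. Of the 2434 bp within 1 kb of the TSS cluster that holds the canonical start, H3K4me3 covered all in each library and H3K27ac a mean of 5.54%. The surrounding 2001 bp of a start 2268 bp downstream held all 3 marks in all libraries, with H3K4me3 over 100%, H3K4me2 over 92.0% and H3K27ac over 72.6% on average. The widest H3K4me3 peak, 5896 to 6995 bp, ranked from 10 to 24 by width in its 4 lists. MEIS1-AS3 and MEIS1-AS2, lncRNAs on the other strand, have starts 1655 and 5187 bp from the canonical TSS, and peaks carry no strand.

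PBX3, a TALE homeodomain partner of MEIS and HOX proteins, spans chr9:125747345-125967377 on the plus strand. H3K27ac covered 6606 and 3824 bp in Corin and 4547 and 3057 bp in DMSO, so the groups overlapped (limma adjusted p 0.442). H3K4me2 (9305 and 8468 against 8699 and 8314 bp) and H3K4me3 (5665 and 5154 against 5514 and 5402 bp) overlapped too. Within 1 kb of its TSS cluster H3K4me3 covered 100% and H3K4me2 25.4%. The plot of peaks around the TSS shows a gap in H3K4me2 at the TSS, and 54.5% to 64.6% of the H3K4me3 length in the window also lay under H3K4me2. Over the gene body the libraries of 1 treatment differed more than the treatments did: H3K27ac covered 25425 and 9788 bp in Corin against 17067 and 9715 bp in DMSO.

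**Figure D3:**
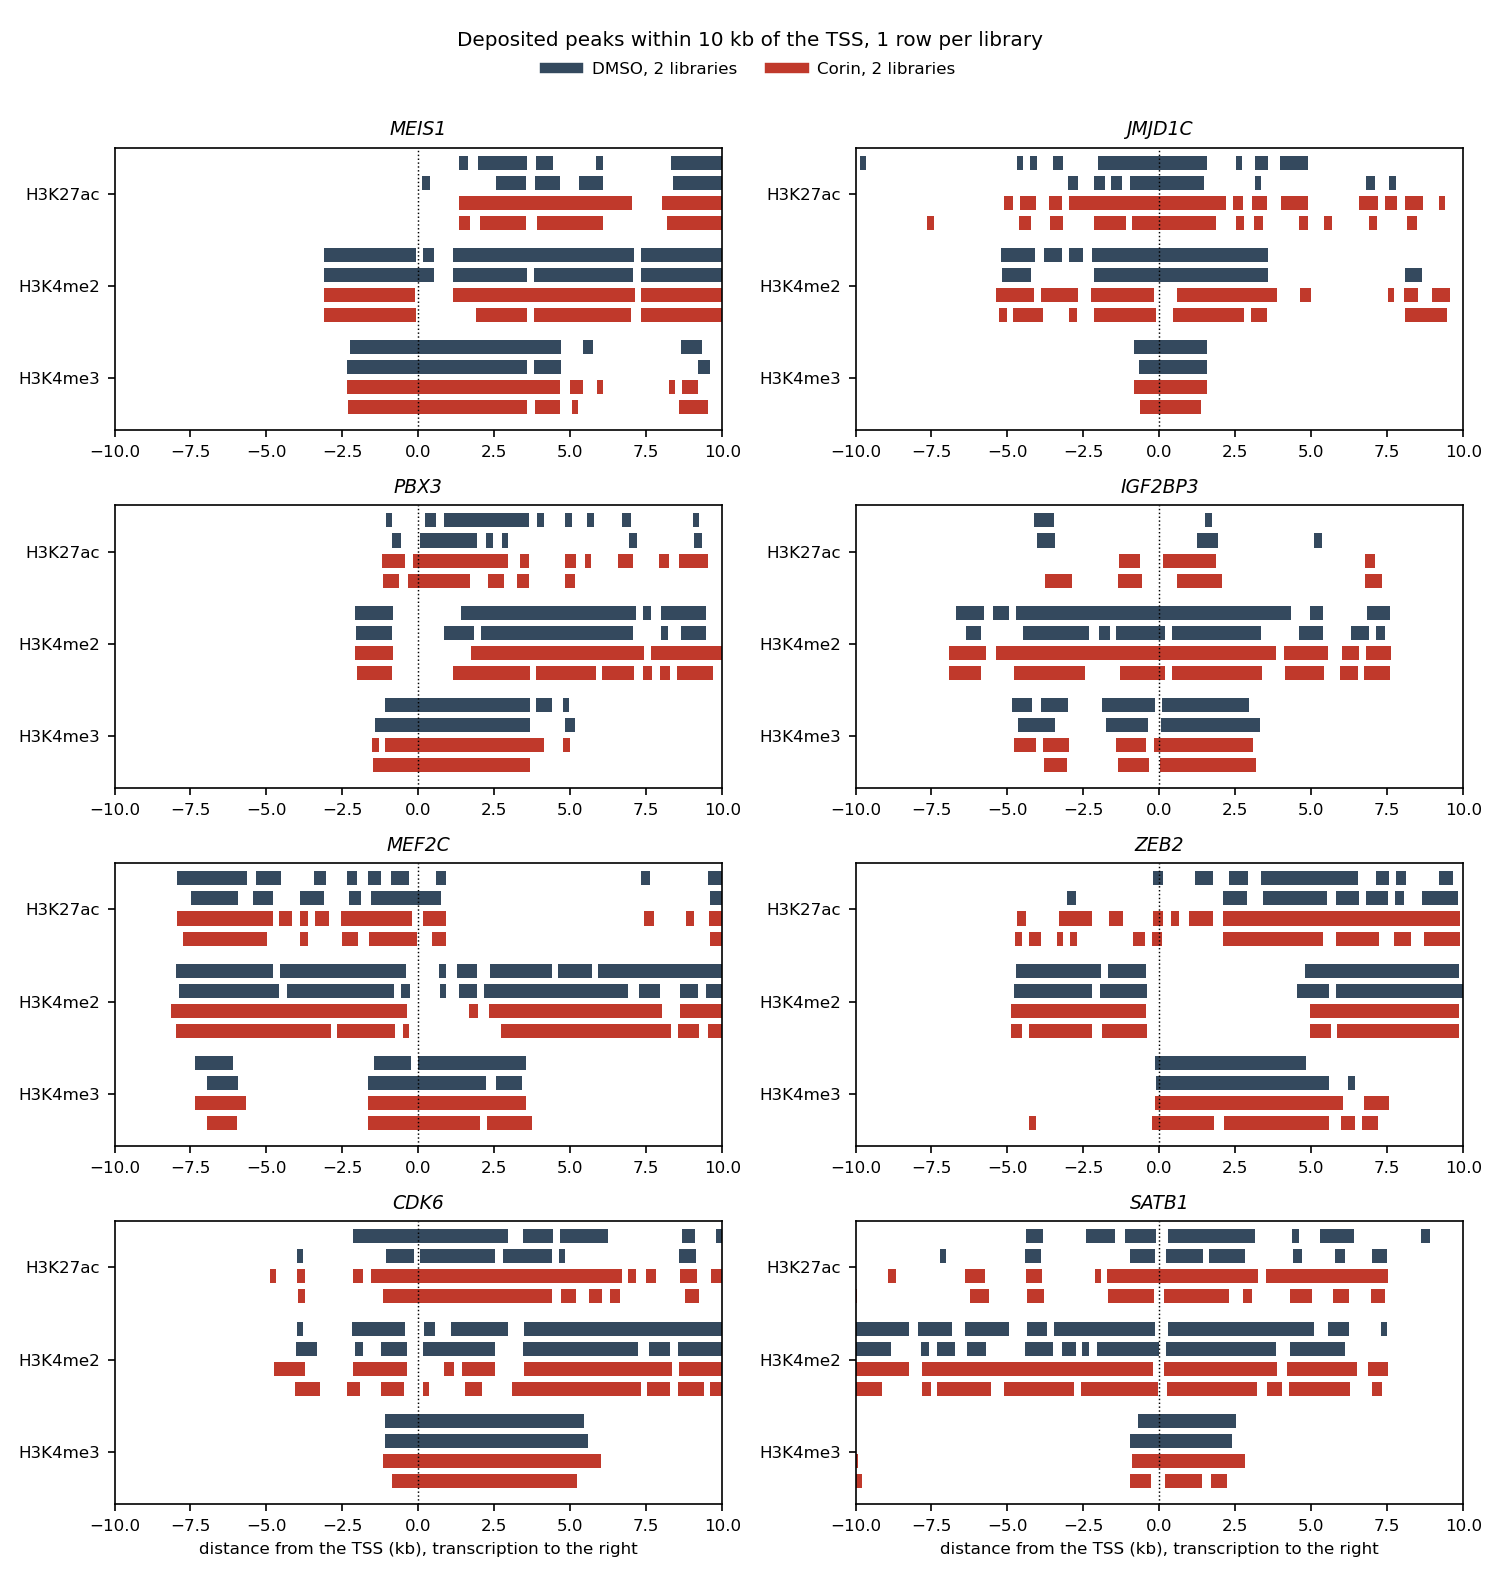
Deposited peaks by distance from the canonical TSS (kb, x axis; transcription runs to the right), 8 genes, with 4 rows per mark: 2 DMSO libraries above 2 Corin libraries. EYA1 is left out because it has only 1 narrow H3K4me2 peak there; at ZEB2 the H3K4me3 block and the H3K4me2 peaks lie side by side.

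MEF2C, a MADS-box factor of myeloid progenitors, spans chr5:88717117-88904257 on the minus strand. H3K4me3 covered 6889 and 6161 bp in Corin and 6029 and 5776 bp in DMSO. Both Corin libraries lay above both DMSO libraries, by 622.5 bp (6525 ± 515 against 5902.5 ± 179, SD, n = 2 each; limma adjusted p 0.855), but they overlapped once scaled. H3K27ac overlapped, at 8415 and 6015 against 5958 and 6095 bp, as did H3K4me2 at 15146 and 13964 against 15413 and 14460 bp. Of its 6 clusters of annotated starts, the one with the canonical TSS had H3K4me3 over 96.6% and H3K27ac over 73.8% of its surroundings on average. The cluster at the 5′ end of the gene record, 20868 bp further upstream, had 0 bp of any mark in all 12 libraries. A cluster 57320 bp downstream had H3K4me2 over 100% and H3K27ac over 51.2% in the mean, without H3K4me3. MEF2C-AS1, a lncRNA on the other strand, has a start 168 bp from the canonical TSS, and peaks carry no strand.

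ZEB2, a zinc-finger repressor, spans chr2:144364364-144521057 on the minus strand. H3K27ac covered 11029 and 8306 bp in Corin against 6065 and 6154 bp in DMSO, a difference of 3558 bp (9667.5 ± 1925 against 6109.5 ± 62.9, SD, n = 2 each; limma adjusted p 0.188). The Corin libraries were the higher ones, and the lower ones after scaling to covered length. H3K4me3 covered 6969 and 6689 bp against 4960 and 5912 bp, with a difference of 1393 bp and a limma adjusted p of 0.579. For this mark the Corin libraries lay above both DMSO libraries on either scale. H3K4me2 covered 9356 and 8687 against 9150 and 9343 bp and overlapped. H3K4me3 and H3K4me2 shared less sequence here than at the other members. Of the H3K4me3 length, 0.746% and 21.4% in the DMSO libraries and 26.9% and 27.3% in the Corin libraries also lay under H3K4me2, against 72.8% to 82.6% of the whole H3K4me3 lists. No other member with H3K4me3 had less than 49.8% in any library. ZEB2 start clusters 2294 and 3722 bp from the canonical TSS had H3K4me3 over 96.3% and 98.6% of their surroundings on average. H3K4me2 covered 0% and 6.78% there. The lncRNAs ZEB2-AS1, LINC01412 and LINC02993 also have starts in the window, and peaks carry no strand.

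SATB1, which organises chromatin loops, spans chr3:18345377-18445621 on the minus strand. Around its canonical TSS all 3 marks overlapped between treatments: H3K27ac covered 10620 and 6826 against 7025 and 5069 bp, H3K4me2 16035 and 13616 against 14010 and 11796 bp, and H3K4me3 3778 and 2626 against 3200 and 3337 bp. A start cluster 19534 bp upstream had H3K4me3 over 100% of its surroundings in all 4 libraries and H3K27ac over 90.4% on average. Its H3K4me3 peaks were the widest of the gene in each library, 4518 to 6636 bp. SATB1-AS1, a lncRNA on the other strand, has a start 19685 bp from the canonical TSS. Over the gene body H3K4me3 covered 12477 and 10862 bp in Corin and 10564 and 9827 bp in DMSO, and the Corin libraries lay higher until scaled to covered length.

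EYA1, a transcriptional coactivator with phosphatase activity that acts in organ development, spans chr8:71197433-71592025 on the minus strand. It had 0 bp of H3K27ac and 0 bp of H3K4me3 in all libraries, both around the TSS and over the gene body. H3K4me2 covered 291 and 328 bp in Corin and 510 and 429 bp in DMSO at the canonical TSS. The Corin libraries lay lower, by 160 bp (limma adjusted p 0.738), but with only peaks of a score of at least 100 the difference was 164 bp in favour of Corin. That value is 1 peak of 328 bp in Corin replicate 2, whose score of 100 is the minimum itself, and the other 3 libraries had scores of 91 to 95. Those peaks were wider than 10.6% to 29.4% of the peaks in their lists, where the widest H3K4me2 peak of every other member was wider than 94.7% or more.

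CDK6, a cyclin D-dependent kinase of the G1 phase, spans chr7:92604921-92836573 on the minus strand. Around the TSS all marks overlapped between treatments: H3K27ac covered 10578 and 7557 against 8310 and 5954 bp, H3K4me2 10500 and 9082 against 10693 and 10144 bp, and H3K4me3 7181 and 6108 against 6520 and 6673 bp. The H3K4me3 was 1 unbroken peak per library, which ranked from 10 to 19 by width. Over the 231653 bp of the gene, H3K27ac covered 46444 and 29845 bp in Corin and 18748 and 19674 bp in DMSO. That is 20.0% and 12.9% of the gene against 8.09% and 8.49%, a ratio of 1.99 beside the list ratio of 1.96. The Corin libraries lay above both DMSO libraries, and overlapped them after scaling. H3K4me2 covered 23820 and 20605 bp in Corin and 16390 and 16346 bp in DMSO, a ratio of 1.36 beside 1.28 for the list, again apart before scaling and overlapping after it. CDK6-AS1, a lncRNA on the other strand, starts 113 bp from the TSS.

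JMJD1C, a jumonji protein of the KDM3 family, spans chr10:63167221-63521850 on the minus strand. Around the canonical TSS H3K27ac covered 9906 and 6558 bp in Corin and 6106 and 4163 bp in DMSO. The Corin libraries lay above both DMSO libraries, by 3097.5 bp (8232 ± 2367 against 5134.5 ± 1374, SD, n = 2 each; limma adjusted p 0.242), and overlapped them, at a lower mean, after scaling. H3K4me2 (9508 and 7780 against 7942 and 7243 bp) and H3K4me3 (2396 and 2004 against 2405 and 2218 bp) overlapped. Over the gene body H3K27ac covered 51125 and 30578 bp in Corin and 26057 and 19247 bp in DMSO, a ratio of 1.80 beside 1.96 for the list. H3K4me2 covered 50961 and 39646 bp against 34064 and 30375 bp, a ratio of 1.41 beside 1.28 for the list. Both marks lay higher in Corin over the gene body and overlapped after scaling. Within 1 kb of the TSS, H3K4me2 covered all 2001 bp in both DMSO libraries and 1250 and 1445 bp in the Corin libraries. At that distance, looked at after the values were seen, it also lay lower in Corin at MEIS1, MEF2C, CDK6 and EYA1. That is 5 of 9 members, beside 11.5% of 12746 covered genes, and 0 lay higher, beside 17.9%. H3K27ac at that distance lay higher at PBX3, IGF2BP3, ZEB2 and SATB1, beside 45% of 9122 genes, and lower at 0, beside 0.888%. H3K4me3 lay higher at 0 and lower at 0, beside 18.9% and 9.47%. The start of the protein-coding gene REEP3 lies inside the gene record, 55424 bp from the canonical TSS, and the peaks there cannot be assigned to 1 of the 2 genes.

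IGF2BP3, an oncofetal RNA-binding protein, spans chr7:23310209-23470491 on the minus strand. H3K27ac around its TSS covered 2755 and 3727 bp in Corin and 890 and 1568 bp in DMSO. The Corin libraries lay higher, by 2012 bp (3241 ± 687 against 1229 ± 479, SD, n = 2 each), with a limma adjusted p of 0.136, the lowest of the members. After scaling the mean stayed higher, by 748 bp, but the libraries overlapped. Within 1 kb of the TSS H3K27ac covered 1252 and 843 bp in Corin and 0 bp in both DMSO libraries, while H3K4me2 and H3K4me3 lay there in all libraries. H3K4me3 around the TSS went the other way, at 5800 and 4883 bp in Corin and 6104 and 5888 bp in DMSO, with a difference of -654.5 bp and a limma adjusted p of 0.861. H3K4me2 covered 13259 and 10550 against 11727 and 9215 bp and overlapped. H3K27ac shared 10.9% and 22.2% of the H3K4me3 length in DMSO, and 42.1% and 60.9% in Corin. In the whole lists that share was 31.8% to 38.5% in DMSO and 49.7% to 54.5% in Corin.

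Over the gene bodies more members lay apart than around the TSS for each mark, but fewer did after scaling to covered length. The H3K27ac ratio there was under that of the list at 6 of 8 members, beside 58.6% of genes, and for H3K4me2 at 6 of 9, beside 69.7%. H3K27ac covered more in Corin at 6 of the 8 covered members (MEIS1, CDK6, JMJD1C, IGF2BP3, ZEB2 and SATB1), beside 53.4% of covered genes, and less at 0, beside 0.953%. H3K4me2 covered more at CDK6, JMJD1C and IGF2BP3 (39.7% of genes) and less at EYA1 (4.76%). H3K4me3 covered more at MEIS1, MEF2C, ZEB2 and SATB1 (23.5%) and less at none (9.09%). After scaling, IGF2BP3 for H3K27ac (18.9% of genes) and ZEB2 for H3K4me3 (13%) stayed higher, while MEIS1 and ZEB2 lay lower for H3K27ac (21.8%). MEIS1, ZEB2, EYA1 and SATB1 lay lower for H3K4me2 on that scale (39.5%), and 0 members higher (13.8%). With the number of peaks matched between lists, 3 members lay higher for H3K27ac, beside 33.7% of the 9765 genes then covered. Without Corin replicate 2 the H3K4me2 count was 7 higher (64.4% of genes), and without DMSO replicate 1 it was 6 higher (48%) and 2 lower (21.3%). Without Corin replicate 1 there were 2 lower for H3K4me2 (19.5%) and 3 lower for H3K4me3 (26.2%), and H3K4me3 had 1 lower without DMSO replicate 1 (26.1%) and 2 lower without DMSO replicate 2 (20.9%).

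**Figure D4:**
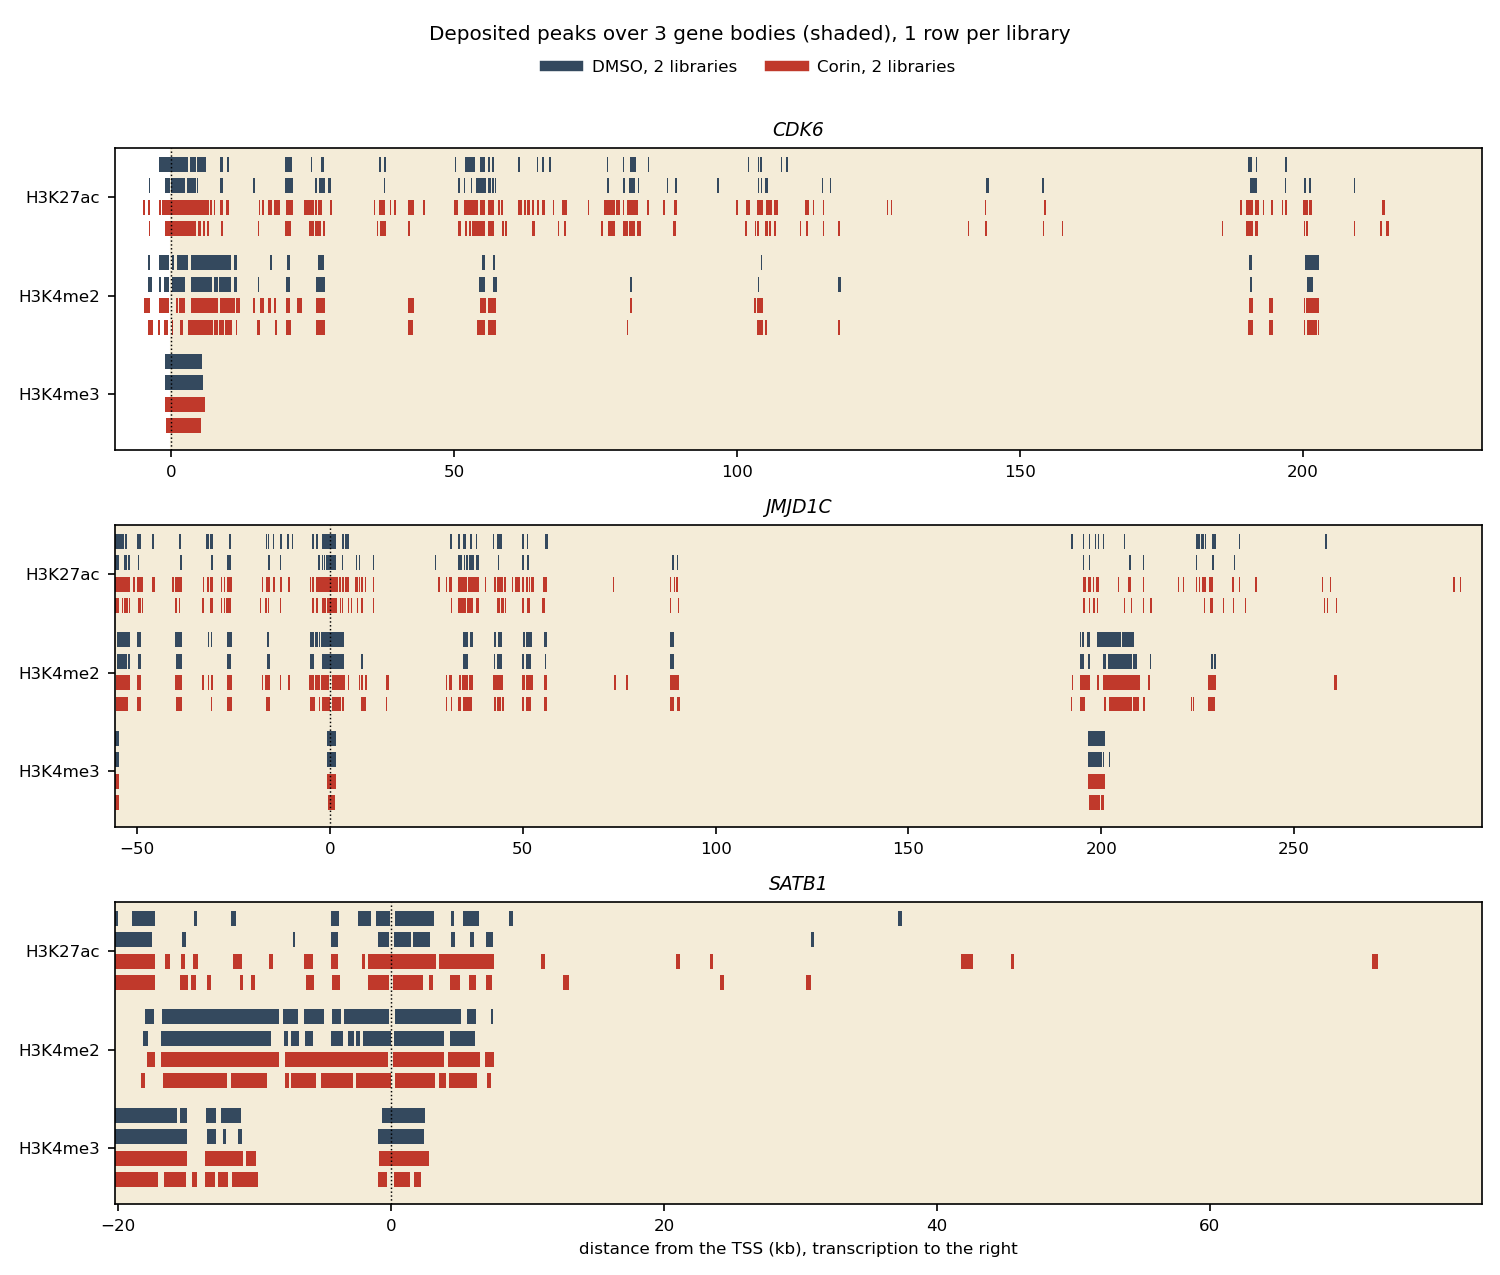
Deposited peaks over the gene bodies (shaded) of CDK6, JMJD1C and SATB1 by distance from the canonical TSS (kb, x axis), with 4 rows per mark: 2 DMSO libraries above 2 Corin libraries. H3K27ac peaks are scattered along CDK6 and JMJD1C, with 51 to 64 and 60 to 71 in the Corin libraries against 31 to 36 and 37 to 46 in the DMSO libraries. The whole H3K27ac lists also held more peaks in Corin, 34424 and 30029 against 17599 and 19995. SATB1 has a second H3K4me3 block upstream.

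Merging the 4 lists of a mark into union regions separated the places that only 1 treatment held. Of 324 H3K27ac regions at the members, 23 (7.10%) were in both Corin and neither DMSO library, beside 11.5% of all H3K27ac regions, and 1 was in both DMSO and neither Corin library, beside 0.180%. For H3K4me2 it was 13 of 122 regions (10.7%, beside 9.64%) and 1 (beside 0.158%). For H3K4me3 it was 1 of 24 (4.17%, beside 1.49%) and 0 (beside 0.289%). Of the 324 H3K27ac regions, 167 were in a single library. CDK6 and JMJD1C held 14 of the 23 gained H3K27ac regions, 7 each, and JMJD1C held 7 of the 13 for H3K4me2. For H3K27ac that was 8.33% of the 84 regions at CDK6 and 8.14% of the 86 at JMJD1C. For H3K4me2 it was 17.9% of the 39 at JMJD1C. All but 2 of the gained H3K27ac regions and all of the gained H3K4me2 regions lay in introns, up to 214 kb from the TSS. With matched numbers of peaks 7, 1 and 0 regions were gained for H3K27ac, H3K4me2 and H3K4me3, beside 4.49%, 3.91% and 0.804% of all regions. All H3K27ac regions then numbered 26594 in place of 41587, so these counts cannot be set against the totals of 324, 122 and 24. The same holds for the counts without 1 library that follow. Leaving out 1 library moved the gained H3K27ac count to 56 (Corin replicate 1), 122 (Corin replicate 2), 44 (DMSO replicate 1) and 43 (DMSO replicate 2), and the lost count to 6, 2, 16 and 21. Over all H3K27ac regions the gained share was then 33%, 42.5%, 16.4% and 20.6%, and the lost share 1.38%, 0.498%, 3.6% and 2.78%. For H3K4me2 the gained count was 20 without Corin replicate 1 (17.2% of all regions) and 30 without Corin replicate 2 (22.6%). For H3K4me3 it was 3 (4.71%), 3 (5.52%) and, without DMSO replicate 1, 2 (2.25%). The lost H3K4me2 count was 3 without Corin replicate 1 (1.02%) and 2 without DMSO replicate 1 (2.1%), and H3K4me3 had 1 lost without either of these (1.14% and 2.1%).

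The widest of them was a CDK6 intron region, chr7:92793563-92794735, 42.4 kb into the gene, whose centre is printed above. H3K27ac covered 1173 and 267 bp there in Corin and 0 bp in DMSO, and H3K4me2 covered 1108 and 918 bp of its own region of 1108 bp in Corin and 0 bp in DMSO. It had no H3K4me3 in any library. The IGF2BP3 region chr7:23471077-23471862, centred 0.979 kb upstream of the TSS, had 700 and 786 bp of H3K27ac in Corin and 0 bp in DMSO. It carried H3K4me2 and H3K4me3 peaks in all libraries of those marks. The JMJD1C intron region chr10:63450638-63451402 had H3K4me2 over 765 and 267 bp in Corin only and no other mark in any library. The ZEB2 intron region chr2:144504210-144504610, 15.7 kb into the gene, had H3K27ac over 373 and 201 bp in Corin only and neither methyl mark.

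ZEB2 also held the 1 gained H3K4me3 region, chr2:144512576-144513441, 7.11 kb downstream of the TSS over exon and intron sequence. It had 797 and 513 bp in Corin and 0 bp in DMSO, with H3K27ac and H3K4me2 in all libraries. The 2 lost regions were narrow. The MEIS1 intron region chr2:66494433-66494875, 59.5 kb from the TSS, had 256 and 350 bp of H3K27ac in DMSO, 0 bp in Corin and neither methyl mark. The MEF2C region chr5:88882286-88882510, 0.786 kb from the TSS, had 219 and 197 bp of H3K4me2 in DMSO and 0 bp in Corin, while H3K27ac and H3K4me3 lay there in all libraries.

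Among 15 genes of the fusion complex and its cofactors, H3K27ac around the TSS lay higher in Corin at 12 and lower at 0, but at 0 and 3 once scaled to covered length. Of these genes 14 had any H3K27ac. Over all covered genes the shares were 54.6% and 0.591%, or 16.4% and 25% scaled. The median difference was 897 bp beside 445 bp over all covered genes. The largest was AFF1, a scaffold of the super elongation complex, at 6314 and 3630 against 1153 and 2765 bp, which overlapped after scaling. H3K4me2 lay higher at 7 and lower at 1 of the 15, and at 0 and 11 after scaling, beside 39.6% and 3.91% of all covered genes, or 9.66% and 46.1% scaled. It was led by CDK9, the kinase of that complex, at 6314 and 5225 against 4427 and 4124 bp (overlapping after scaling), and AFF4 was the lower one. H3K4me3 lay higher at 3 and lower at 2, or 2 and 4 after scaling, beside 25.8% and 8.38%, or 14.1% and 19.9%, with CDK9 (difference 625.5 bp) and AFF1 (-407.5 bp) at the ends.

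Among 15 other reported fusion targets 12 lay higher and 0 lower in H3K27ac. The counts were 5 higher and 3 lower in H3K4me2, and 3 higher and 0 lower in H3K4me3. After scaling they were 3 and 4, 0 and 10, and 2 and 3. Any coverage was found at 13 of the 15 for each mark. Of all covered genes 54.6% lay higher and 0.591% lower in H3K27ac, 39.6% higher and 3.91% lower in H3K4me2, and 25.8% higher and 8.38% lower in H3K4me3. Scaled, they were 16.4% and 25%, 9.66% and 46.1%, and 14.1% and 19.9%. HOXA7, a gene of the HOXA cluster, had the largest H3K27ac difference, at 8866 and 8023 against 1713 and 4750 bp, which overlapped after scaling. For H3K4me3 HOXA7 and HOXA3 had the same highest difference, 1020.5 bp, which at HOXA7 overlapped after scaling. For H3K4me2 the ends were LMO2, a haematopoietic LIM protein, higher by 1748 bp but overlapping after scaling, and HOXA9, with a difference of -1150 bp. The HOXA genes of this list share windows. Over all 15 genes of the list the H3K27ac median difference was 2288.5 bp, beside 2012 bp for the 9 members. limma called 0 genes of either list for any mark. At an unadjusted p under 0.05 the first list had 5, 1 and 1 for H3K27ac, H3K4me2 and H3K4me3. The second list had 9, 2 and 0, beside 22.97%, 14.09% and 6.81% of all genes tested.

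The 17 paralogues of the members were less covered in DMSO in most pairs. The member had the larger mean in 10 of 17 pairs for H3K27ac, with 5 the other way, in 16 against 1 for H3K4me2 and in 12 against 3 for H3K4me3. MEIS1 had 7563 bp of H3K4me3 beside 3254.5 bp at MEIS2 and 0 bp at MEIS3, and ZEB2 had 5436 bp beside 203 bp at ZEB1. The pairs that ran the other way for H3K27ac included MEF2C with 6026.5 bp beside MEF2D with 12761 bp, and IGF2BP3 with 1229 bp beside IGF2BP2 with 6628 bp. EYA1 was below EYA3 for all 3 marks. Of the 17, 6 lay higher in Corin for H3K27ac and 0 lower, 6 and 1 for H3K4me2, and 4 and 1 for H3K4me3, or 2 and 4, 1 and 6, and 3 and 3 after scaling. Only 10, 15 and 11 of the 17 had any coverage of the 3 marks, and the shares over all covered genes are those given for the list above. MEF2D had the largest H3K27ac difference, at 15244 and 15416 against 12174 and 13348 bp, though it lay lower after scaling, and the largest for H3K4me3, at 1616 bp. CDK4 led for H3K4me2, at 1293 bp before scaling, and KDM3B was the lower one for H3K4me2 (-451 bp) and H3K4me3 (-141.5 bp). limma called 0 of the 17, with 2, 2 and 3 at an unadjusted p under 0.05. Of all genes tested 22.97%, 14.09% and 6.81% lay under that cut.

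The gene on another chromosome with the most similar window lengths, by the mean absolute difference over the 12 libraries, was SKIDA1 for MEIS1 (713 bp) and NIPBL for PBX3 (472.5 bp). For MEF2C it was WNK1 (1243 bp), for CDK6 ZNF516 (617 bp) and for JMJD1C H3C10 (574 bp). For IGF2BP3 it was EVI2B (959 bp), for ZEB2 H3C4 (789 bp) and for SATB1 DOCK8 (802 bp). EYA1 was covered in 4 libraries, too few for this measure. NIPBL at 472.5 bp was the closest match of any member and WNK1 at 1243 bp the most distant.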

How the data were processed

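Per the labels' protocols, CUT&RUN libraries of MOLM-13 cells were sequenced to 150 bp from both ends, to a minimum of 5000000 reads. The submitters' processing notes name Trim Galore, Bowtie2, Picard, MACS2 and GRCh38 (hg38), with versions not given in the sources used here. Each deposited list gives positions and a score per peak for 1 library, and the score deposited by the authors, a whole number of at least 50 whose definition is not given in the sources used here, was used to order or select peaks inside its own list and for nothing else. No file holds reads, so depth is unknown and no interval was computed. 0 peaks ended past an hg38 chromosome end.

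For each library the bp under peaks were summed within 10 kb of the canonical TSS and over the gene record (GENCODE 44) of 20033 protein-coding genes. A gene was called higher or lower where the 2 Corin libraries did not overlap the 2 DMSO libraries. limma 3.58.1 (R 4.3.3; trend, Benjamini-Hochberg at 0.05) was fitted to genes with any coverage and tested on simulated data. Other steps used Python 3.11.15, numpy 2.4.6, pandas 2.3.3 and matplotlib 3.10.9. Union regions were held by a library at 1 bp of overlap. Alternatives were matched peak numbers, a score of at least 100, a 5 kb window, the 5′ end of the gene record, other scales and filters, a replicate block and leaving out each library.

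Named genes were the members, the nearest match of each, and from each list the largest rise and fall per mark among genes whose groups did not overlap. The members, the gene lists and the sequences shown were chosen with earlier results of these data known. ZEB2's share of H3K4me3 under H3K4me2 was singled out after its values were seen.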

Additional observations from a re-analysis of the deposited data

Results flagged for a closer look

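At MEIS1 H3K27ac and H3K4me2 moved in opposite directions around the TSS: both Corin libraries lay above both DMSO libraries for H3K27ac (difference 2312 bp) and below them for H3K4me2 (-892 bp). At IGF2BP3 H3K27ac lay higher in both Corin libraries (2012 bp) and H3K4me3 lower (-654.5 bp). These are 2 of 9 members, beside 813 of 14387 genes (5.65%) with any pair of marks in opposite directions. H3K27ac lay higher with H3K4me2 lower at 1.94% of 10541 genes, and with H3K4me3 lower at 3.86% of 9957. No excess was tested, and the difference between marks was not tested. Scaled to covered length, MEIS1 lay lower for both marks (-1493 and -3805 bp), while IGF2BP3 kept its opposite signs (748 and -980 bp), with overlapping H3K27ac libraries.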

How the results depend on the processing

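Of 222 counts recomputed under an alternative, 155 stayed within 1.5 times the reported count and 67 did not. Scaled to covered length, members higher and lower around the TSS were 0 and 4 for H3K27ac, 6 were lower for H3K4me2 and 1 was higher for H3K4me3. Called H3K27ac differences turned round at MEIS1 (-1493 bp), JMJD1C (-1550 bp) and ZEB2 (-1767 bp), and uncalled ones at PBX3 (-1842 bp), MEF2C (-3511 bp), CDK6 (-3875 bp) and SATB1 (-2550 bp). Over the gene body, a scale added after seeing the data, 1 was higher and 2 lower for H3K27ac, 0 higher and 4 lower for H3K4me2, and 1 higher for H3K4me3. There called H3K27ac differences turned round at MEIS1 (-3248 bp), JMJD1C (-3561 bp), ZEB2 (-1968 bp) and SATB1 (-2222 bp), and uncalled ones at PBX3 (-7465 bp) and MEF2C (-2692 bp). Positive differences also became negative at 4 members for H3K4me2 and 1 for H3K4me3 around the TSS, and at 5 and 2 over the body. With a score of at least 100, H3K4me2 around the TSS had 2 higher and 1 lower (38.1% and 3.98% of genes) and H3K4me3 0 lower (8.45%), H3K4me2 over the body had 0 lower (4.8%), and EYA1 turned round in both (164 bp). Lost regions were then 0 for H3K27ac and 0 for H3K4me2 (0.14% and 0.158% of all), and gained regions 8 for H3K4me2 and 0 for H3K4me3 (9.53% and 1.42%). Matched peak numbers gave 3 higher for H3K27ac over the body (33.7% of genes), gained regions of 7, 1 and 0 (4.49%, 3.91% and 0.804%), and lost regions of 3 for H3K27ac and 4 for H3K4me2 (1.59% and 1.7%). From the gene-record end 1 member was lower for H3K4me2 and 2 for H3K4me3 (3.83% and 8.28% of genes), within 5 kb 1 was higher for H3K4me2 (35.3%), and at 50% coverage 3 H3K4me2 regions were lost (0.273%).

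Leaving out each library gave these ranges around the TSS: 4 to 8 higher for H3K27ac, 0 to 5 higher and 2 to 5 lower for H3K4me2, and 2 to 6 higher and 1 to 5 lower for H3K4me3. Over the body they were 6 to 8 higher for H3K27ac, 3 to 7 higher and 1 to 2 lower for H3K4me2, and 4 to 5 higher and 0 to 3 lower for H3K4me3. Gained regions ranged from 43 to 122, 17 to 30 and 1 to 3, and lost regions from 2 to 21, 1 to 3 and 0 to 1. Of all covered genes, 63.2% to 81% lay higher around the TSS for H3K27ac, 47.1% to 66.3% higher and 7.27% to 21.4% lower for H3K4me2, and 37% to 49.7% higher and 18.5% to 26.6% lower for H3K4me3. Over the body 62.2% to 80.2% lay higher for H3K27ac. For H3K4me2 48% to 64.4% lay higher there and 9% to 21.3% lower. For H3K4me3 the shares were 35.9% to 46.1% higher and 19.8% to 26.2% lower.

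With the replicate block, which asks for Corin above (or below) DMSO in both same-numbered pairs, 7 members were higher for H3K27ac around the TSS, 4 higher and 4 lower for H3K4me2 and 2 lower for H3K4me3. Of all covered genes 65.9%, 49.8%, 7.52% and 15.6% met these rules. Over the body 6 were higher for H3K4me2 and 2 lower for H3K4me3, beside 50.4% and 16.4%. limma with the replicate block called 1460 (13.7%), 660 (4.63%) and 0 genes for the 3 marks. It called 1 of the 8 members tested for H3K27ac, IGF2BP3 (adjusted p = 0.00770). Under the other settings that kept all libraries, the lowest adjusted p of any member for that mark was 0.0612 to 0.469. Deviations of same-numbered libraries correlated across genes at 0.294, 0.314 and 0.234, with 2 pairs only, and no label states what same-numbered libraries have in common. limma called no member under the other alternatives. Over all genes it gave 350 H3K27ac calls with a mean of at least 500 bp, 1088 without Corin replicate 1 and 1305 without Corin replicate 2, 23 without a filter, and 0 otherwise. For H3K4me2 these were 20 as reported, 39 scaled, 49 with that filter, 23 without a filter and 0 without any 1 library, and for H3K4me3 16 without a filter. Lengths of peaks depend on depth and calling in each library, which are unknown here.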
